A study of Mus musculus with 12 samples.

Results

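The opioid system of the amygdala was described through 8 genes, the precursors *Penk*, *Pdyn*, *Pnoc* and *Pomc* and the receptors *Oprm1*, *Oprd1*, *Oprk1* and *Oprl1*. They were found by matching the Ensembl identifiers of the count table to GENCODE M21 gene symbols, and each of the 8 had 1 row among the 47729 genes of the table. The tissue was bilateral amygdala of 12 untreated female C57/BL6 mice of matched age, with 1 library per mouse. All mice had passed through an elevated plus maze, a light/dark box and a three-chamber social test before dissection, and no group had received a drug or carried an allele that the others lacked. By predicted anxiety state, 3 mice were less anxious (mice 3, 7 and 12), 4 were anxious (mice 1, 4, 8 and 11) and 4 were more anxious (mice 2, 6, 9 and 10). A predicted state need not match the recorded behavior of a mouse. Mouse 6, labeled more anxious, had the highest percentages of time and distance in the light and of open-arm time of all 12 mice. Mouse 5, which had no group and which the authors had removed as an outlier, had reads for 23768 genes against at least 26378 in the others. Of the fits, it entered only an alternative fit of the behavior measures, and its levels are described apart.

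The authors had made these groups from the second principal component of the same expression data, and the first component, PC1, was a covariate of the group test. A group difference is therefore not independent of the expression values that made the groups. The groups also hold one inbred strain and one sex, and the dissected block, a part of a slice cut by coordinates, can take in neighboring tissue. The libraries held 31745630 to 45142355 estimated counts. In the 11 mice with a group, markers of basolateral excitatory neurons summed to 842.2 to 1693 CPM (estimated counts relative to library size, scaled by edgeR's TMM factors), and markers of the central amygdala to 252.7 to 578.0 CPM. Markers of striatal projection neurons, cells of the neighboring striatum that share several genes with neurons of the central amygdala, were also present, at 193.8 to 676.4 CPM in sum.

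Opioid peptides are cut from larger precursor proteins and act on receptors that couple to inhibitory G proteins. Enkephalins, from *Penk*, act mainly on the delta and mu receptors, dynorphins, from *Pdyn*, on the kappa receptor, and beta-endorphin, from *Pomc*, on the mu receptor. Nociceptin, from *Pnoc*, binds its own receptor, the product of *Oprl1*. In the amygdala, enkephalin and dynorphin neurons are found in the central nucleus, among other places, and the system is studied for its part in fear, stress and pain.

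The precursors carry the peptides as short repeats in the coding sequence, and the repeats differ in number and form between the precursors. In the GENCODE M21 transcripts (build GRCm38), *Penk* held 7 copies of the enkephalin pentapeptide code, 6 for Met-enkephalin and 1 for Leu-enkephalin. *Pdyn* held 3, each for the Leu form that opens the dynorphins and neoendorphins. *Pomc* held 1, for the Met form that opens beta-endorphin. The sites below are shown to compare these codes. Capitals mark the 15 coding bases of the pentapeptide (in *Pnoc*, the first 5 codons of nociceptin). The lower-case letters are the 6 coding bases on either side. On the left, all sites shown have codons for basic residues of the kind at which precursor enzymes cut. On the right, *Pomc* and *Pnoc* have none, and in *Pdyn*, where the pentapeptide opens longer peptides, such codons lie within those peptides.
Penk site 1: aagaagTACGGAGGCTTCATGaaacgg
Penk site 6: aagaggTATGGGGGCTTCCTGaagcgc
Pdyn site 1: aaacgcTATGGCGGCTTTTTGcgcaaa
Pdyn site 2: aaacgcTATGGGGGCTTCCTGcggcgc
Pdyn site 3: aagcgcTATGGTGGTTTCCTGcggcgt
Pomc site 1: aagcgtTACGGTGGCTTCATGacctcc
Pnoc site 1: aaaaggTTTGGGGGCTTCACCggggcc

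Their capitals lie at chr4:4134334-4134348 (*Penk* site 1, minus strand, exon 2 of 2), chr4:4133941-4133955 (*Penk* site 6), chr2:129688238-129688252, chr2:129688130-129688144 and chr2:129688073-129688087 (*Pdyn*, minus strand, exon 4 of 4), chr12:3960373-3960387 (*Pomc*, plus strand, exon 3 of 3) and chr14:65404878-65404892 (*Pnoc*, minus strand, exon 3 of 4). The 15 bases of *Penk* site 6 and *Pdyn* site 2 were the same, and the 11 sites of *Penk*, *Pdyn* and *Pomc* used 9 distinct sequences. This likeness did not reach the length of a read. Of all 75-base words in the transcripts of the 8 genes, 75 bases being the read length, none occurred on the same strand in a transcript of another gene. On the opposite strand, 5.53% of the *Penk* words lay in the antisense gene *A830012C17Rik* and 0.288% of the *Oprm1* words in *Ipcef1*. The strand setting of the counting is not given in the sources used here, so reads from these overlaps cannot be assigned with certainty. *A830012C17Rik* had at most 39 estimated counts in a mouse, against at least 5114 for *Penk*.

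Per exon length, *Penk* was the most abundant opioid gene by a wide margin. Its mean over 11 mice was 180.1 ± 84.6 CPM per kilobase of exon (SD), and it made up 81.8% of the summed level per kilobase of the 8 genes, with a range of 70.2% to 88.1% across mice. *Oprl1*, the nociceptin receptor, came second at 13.5 ± 2.31 and was the most abundant receptor. It was followed by *Pdyn* at 11.2 ± 6.65 and *Pnoc* at 7.15 ± 1.16 CPM per kilobase.

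The other 4 genes were lower. *Pomc* had a mean of 1.42 ± 1.45 CPM per kilobase (SD, n = 11), *Oprk1*, the kappa receptor, 1.33 ± 0.462, *Oprd1*, the delta receptor, 1.03 ± 0.315, and *Oprm1*, the mu receptor, 0.242 ± 0.169. *Penk* lay above *Oprl1*, *Pnoc* above *Pomc*, and *Oprd1* above *Oprm1* in 11 of 11 mice. The other neighbors in this order had overlapping ranges and were not in the same order in every mouse. *Oprl1* exceeded *Pdyn* in 8 mice, *Pdyn* exceeded *Pnoc* in 9 and *Oprk1* exceeded *Oprd1* in 9 of 11, with a log2 ratio within mice of 0.34 ± 0.37 (SD). *Pomc* exceeded *Oprk1* in only 4 mice, and its median of 0.850 was below that of *Oprk1*, at 1.20 CPM per kilobase. With the longest transcript in place of all exons, *Pomc* and *Oprk1* changed places in the order of means, and the others kept theirs. *Oprm1* has 8037 exon bases but a longest transcript of 2420 bases. On the latter its mean was 0.803 CPM per kilobase, against 1.03 for *Oprd1*. The place of *Oprm1* below *Oprd1* in all 11 mice thus rests on the length of all exons.

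**Figure D1:**
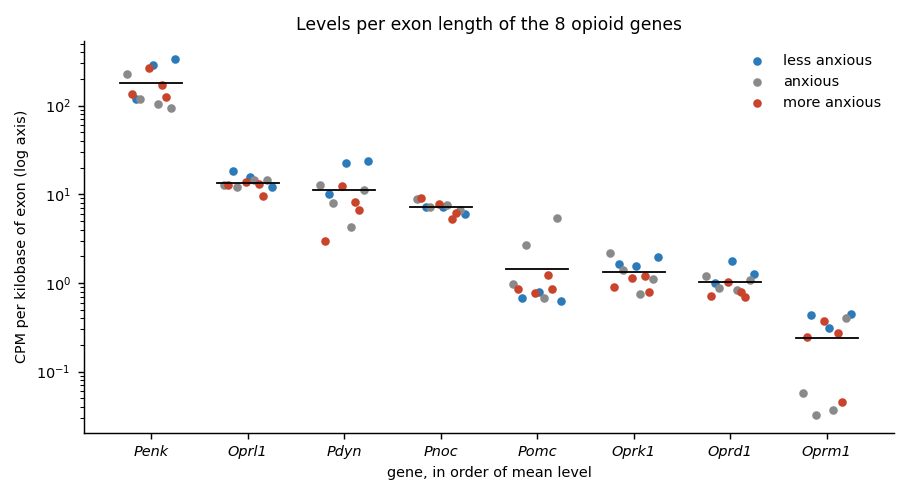
Level of each opioid gene in CPM per kilobase of exon on a log axis, with 1 point per mouse, colored by predicted anxiety state, and a bar at the mean of 11 mice. *Penk* stands apart at a mean of 180.1, and *Oprm1* falls into 2 separate sets of mice.

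The genes also differed in how much they varied between mice. Across the 15891 genes with a mean above 1 CPM, the median coefficient of variation was 14.3%. *Pnoc*, at 16.2%, and *Oprl1*, at 17.1%, were near that median, at the 59.1 and 62.5 percentiles. *Oprd1*, at 30.7%, and *Oprk1*, at 34.9%, were higher. The largest values were those of *Penk* (47.0%), *Pdyn* (59.5%), *Oprm1* (70.0%) and *Pomc* (102.5%), which lay between the 96.5 and 99.6 percentiles.

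The main comparison asked whether the opioid genes differed among less anxious, anxious and more anxious mice. None of the 8 passed edgeR's quasi-likelihood test (adjusted by Benjamini-Hochberg over 26963 genes), and of all genes tested 0.00742% did. At an unadjusted p under 0.05, 2 of 8 passed (*Pomc* and *Oprd1*), against 6.36% of all genes. DESeq2 also called 0 of 8 after adjustment, while it called 187 of all genes. The fitted means of 6 of 8 genes were lower in more anxious than in less anxious mice, with a median log2 fold change of -0.56 over the 8 and 0.004 over all genes tested. The plot of fitted differences gives all 3 contrasts.

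**Figure D2:**
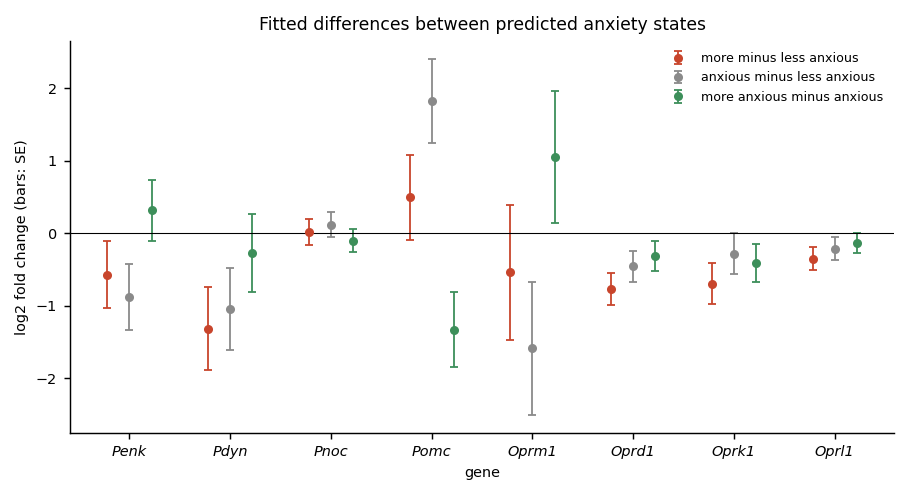
Fitted log2 fold changes of the 8 opioid genes for the 3 pairs of predicted anxiety states, with bars of 1 SE. The values of *Penk*, *Pdyn*, *Oprd1*, *Oprk1* and *Oprl1* for more minus less anxious are below 0 by more than 1 SE, and no gene passed the test after adjustment.

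*Penk*, the enkephalin precursor (chr4:4133531-4138819, minus strand), was measured at 194.3, 465.4 and 553.7 CPM in less anxious mice 3, 7 and 12. In anxious mice 1, 4, 8 and 11 it was at 369.6, 195.7, 168.1 and 154.4 CPM, and in more anxious mice 2, 6, 9 and 10 at 221.6, 434.3, 276.5 and 203.4 CPM. Mice 7 and 12 were highest, and mouse 3 lay below mice of both other groups, so the groups overlapped. The log2 fold change was -0.57 ± 0.46 (SE) for more against less anxious and -0.88 ± 0.45 for anxious against less anxious, with an edgeR adjusted p of 0.909. The former was -0.22 without mouse 12 and -0.84 without mouse 3.

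*Pdyn*, the dynorphin precursor (chr2:129686565-129699844, minus strand), was at 29.2, 65.2 and 67.8 CPM in less anxious mice 3, 7 and 12. It was at 37.2, 23.0, 12.4 and 32.3 CPM in anxious mice 1, 4, 8 and 11, and at 8.52, 35.9, 23.8 and 19.4 CPM in more anxious mice 2, 6, 9 and 10. Mice 7 and 12 were above all others, while mouse 3 lay among the anxious and more anxious mice. The difference of more against less anxious was the largest in size of the 8, at -1.32 ± 0.57 on the log2 scale, and did not pass the test (edgeR adjusted p = 0.847). The striatal marker sum, given below, was 265.6 to 676.4 CPM in less anxious, 193.8 to 355.2 in anxious and 218.2 to 431.3 CPM in more anxious mice, and its part in the *Penk* and *Pdyn* differences was not tested.

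*Pnoc*, the nociceptin precursor (chr14:65400673-65425472, minus strand), was nearly level. Its CPM was 15.4, 15.5 and 13.0 in less anxious mice 3, 7 and 12, 19.2, 15.6, 16.2 and 14.2 in anxious mice 1, 4, 8 and 11, and 19.4, 16.8, 11.2 and 13.2 in more anxious mice 2, 6, 9 and 10. The more anxious mice spanned the values of both other groups. The log2 fold change of more against less anxious was 0.014 ± 0.17 (edgeR adjusted p = 0.985), and its sign turned when some single mice were left out.

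*Pomc*, the precursor of beta-endorphin and of pituitary corticotropin (chr12:3954951-3960642, plus strand), was low in most mice. In less anxious mice 3, 7 and 12 it was at 0.889, 1.03 and 0.834 CPM, and in more anxious mice 2, 6, 9 and 10 at 1.12, 1.02, 1.61 and 1.14 CPM. Among anxious mice, mouse 11 stood at 7.16 and mouse 4 at 3.57 CPM (237 and 136 estimated counts), while mice 1 and 8 stood at 1.29 and 0.899 CPM. The anxious group thus held both the highest values and values within the range of the others. Its log2 fold change was 1.82 ± 0.58 for anxious against less anxious and 0.49 ± 0.58 for more against less anxious, with an unadjusted p of 0.0162 and an edgeR adjusted p of 0.667. *Pomc* is also in the gene list that the study selected from these samples, so its low p is not independent evidence.

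Mice 4 and 11 were also the mice with the highest sums of pituitary markers, through 5 of the 6 hormone genes of the list. *Prl*, prolactin, was at 32.1 and 4.56 CPM in mice 4 and 11 and at most 2.16 in the other 9. *Gh*, growth hormone, was at 20.02 and 1.99 against at most 1.50 CPM. *Cga*, the shared subunit of the glycoprotein hormones, was at 0.946 and 2.78 against at most 0.109 CPM, and *Fshb*, the beta subunit of follitropin, had 9 and 10 estimated counts against 0 in each of the other 9. The whole list of 10 pituitary markers summed to 3.33 to 4.09 CPM in less anxious, 2.34 to 54.6 in anxious and 1.50 to 2.37 CPM in more anxious mice. None of the 10 was at 0 in all mice. *Tshb*, the beta subunit of thyrotropin, was at 0.815 and 1.24 CPM in mice 4 and 11 and up to 1.83 in the others, and the transcription factor genes *Pou1f1*, *Pitx1* and *Tbx19* were not highest in mice 4 and 11 either. *Tbx19*, which marks the corticotropin cells that make *Pomc* in the pituitary, had 1 estimated count in each of these 2 mice and up to 4 in the others. The part of pituitary tissue in the *Pomc* values was not tested. In a fit without these 2 mice, which was added after the data were seen, the adjusted p of *Pomc* was 1 and its log2 fold change of more against less anxious was 0.44. That fold change was 0.25 without mouse 3 and 1.08 without mouse 7.

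*Oprm1*, the mu receptor (chr10:6758506-7038198, plus strand), had 31 annotated transcripts that are summed in the table. It was at 3.47, 2.51 and 3.60 CPM in less anxious mice 3, 7 and 12. In the anxious group, mice 1, 4 and 8 were at 0.460, 0.263 and 0.300 CPM and mouse 11 at 3.23 CPM. In the more anxious group, mice 2, 6 and 9 were at 1.97, 3.03 and 2.18 CPM and mouse 10 at 0.361 CPM. The mice thus fell into 2 sets with no value between 0.460 and 1.97 CPM, and both sets were present among anxious and among more anxious mice. The low set, mice 1, 4, 8 and 10, rested on 10 to 16 estimated counts each, and the other 7 mice had 88 to 138. The log2 fold change was -1.59 ± 0.92 for anxious against less anxious and -0.54 ± 0.93 for more against less anxious (edgeR adjusted p = 0.929). The latter was -1.06 without mouse 6 and -0.065 without mouse 10. *Ipcef1*, on the opposite strand, ran at 1847 to 2839 estimated counts and showed no such gap.

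*Oprd1*, the delta receptor (chr4:132110726-132144486, minus strand), was at 4.06, 7.20 and 5.06 CPM in less anxious mice 3, 7 and 12. It was at 4.86, 3.52, 3.38 and 4.29 CPM in anxious mice 1, 4, 8 and 11 and at 2.85, 4.16, 3.20 and 2.81 CPM in more anxious mice 2, 6, 9 and 10. The groups followed the order less, anxious, more anxious in their means, and of the more anxious mice only mouse 6 reached the lowest less anxious mouse. *Oprd1* had the smallest unadjusted p of the 8 (0.0118), with a log2 fold change of -0.77 ± 0.22 for more against less anxious and an edgeR adjusted p of 0.632. Without mouse 7 the fold change was -0.51.

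*Oprk1*, the kappa receptor (chr1:5588466-5606131, plus strand), was at 14.9, 14.1 and 17.9 CPM in less anxious mice 3, 7 and 12. In anxious mice 1, 4, 8 and 11 it spread from the highest to the lowest value of all, at 19.8, 12.9, 6.95 and 10.1 CPM. In more anxious mice 2, 6, 9 and 10 it was at 8.18, 10.3, 10.99 and 7.29 CPM. It was the 1 gene of the 8 in which every more anxious mouse lay below every less anxious mouse, which 4.75% of the 15891 genes above a mean of 1 CPM did. None of the 8 had every more anxious mouse above every less anxious mouse, against 5.27% of those genes. Its log2 fold change was -0.70 ± 0.28 (edgeR adjusted p = 0.837). Without mouse 6, *Pdyn*, *Oprm1* and *Oprd1* also lay below and *Pomc* above, 5 genes in all. There were 4 such genes without mouse 3, 3 without mouse 7 and 2 without mouse 12, each time including *Oprk1*. With a mouse left out, ranges separate more often: of the 15891 genes, 14.8% did so in either direction without mouse 6, 20.1% without mouse 3, 22.9% without mouse 7 and 15.8% without mouse 12, against 10.02% with all mice.

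*Oprl1*, the nociceptin receptor (chr2:181715016-181720985, plus strand), was at 69.5, 59.3 and 45.4 CPM in less anxious mice 3, 7 and 12. It was at 47.3, 45.8, 54.7 and 53.7 CPM in anxious mice 1, 4, 8 and 11 and at 47.7, 51.2, 48.7 and 35.8 CPM in more anxious mice 2, 6, 9 and 10. Mouse 3 was highest and mouse 10 lowest, and the remaining mice of the 3 groups overlapped. The log2 fold change of more against less anxious was -0.35 ± 0.15 (edgeR adjusted p = 0.857), and -0.16 without mouse 3.

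**Figure D3:**
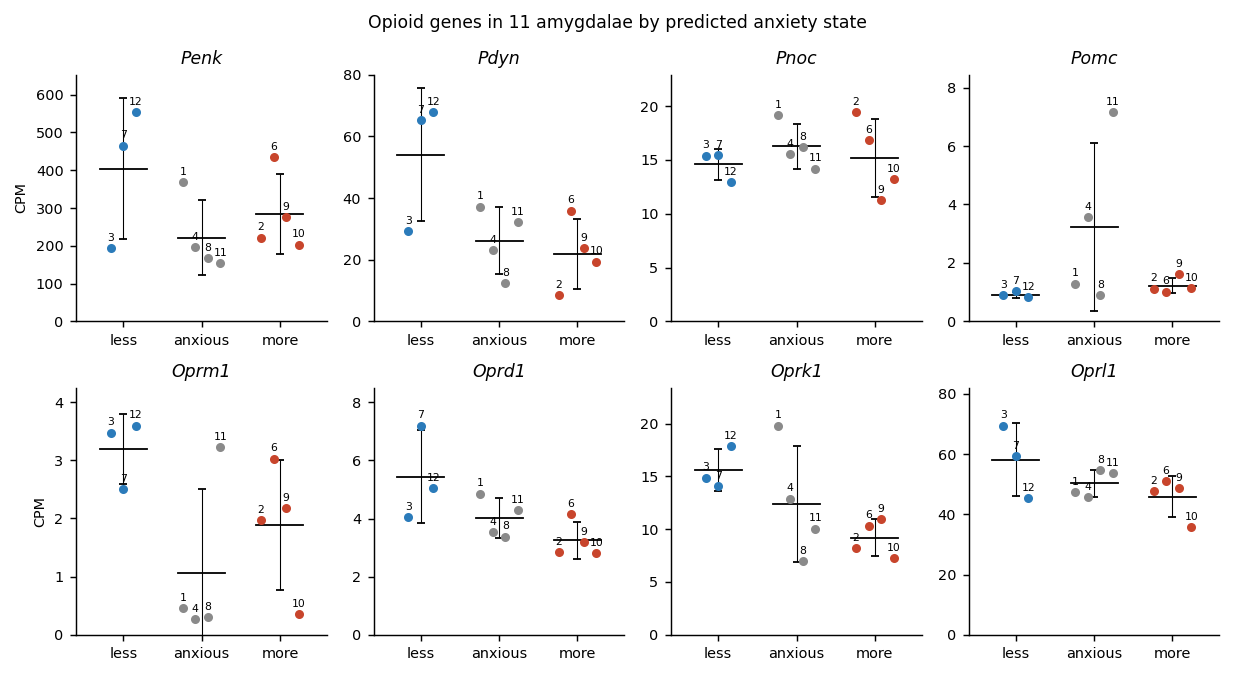
CPM of the 8 opioid genes in each of 11 mice, numbered, by predicted anxiety state, with the mean as a horizontal bar and 1 SD as a vertical bar (cut at 0 for *Oprm1*). *Oprk1* of every more anxious mouse lies below every less anxious mouse, *Oprm1* is low in mice 1, 4, 8 and 10, and *Pomc* is high in mice 4 and 11.

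The next comparison took the 7 behavior measures as numbers, with no use of the groups. Of 56 pairs of gene and measure, 0 had an edgeR adjusted p under 0.05, and 5 had an unadjusted p under 0.05. The share of all genes with an unadjusted p under 0.05 ran from 3.55% to 8.05% across the 7 measures. After adjustment, the share called was 0.00742% against light-box time, 0% against light-box distance, 0% against open-arm time and 0% against total maze entries. Against the box:zone ratios of the social test it reached 0.0148% (3 min), 0.0111% (5 min) and 0.0223% (10 min). DESeq2 called 0 of the 8 for each measure as well, but its calls over all genes were not counted for the measures.

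The 5 pairs were given by a fixed rule. *Pdyn* had a slope of 0.58 ± 0.21 log2 units per SD of open-arm time (SE, unadjusted p = 0.0205, edgeR adjusted p = 0.754) and 0.53 ± 0.23 per SD of total entries (unadjusted p = 0.0442, edgeR adjusted p = 0.700), the latter 0.27 without mouse 2. *Oprd1* had 0.28 ± 0.098 per SD of open-arm time (unadjusted p = 0.0118, edgeR adjusted p = 0.727). *Oprd1* also had a slope of -0.28 ± 0.097 per SD of the box:zone ratio at 3 min, over 10 mice (unadjusted p = 0.0109, edgeR adjusted p = 0.482), which was -0.14 without mouse 7. *Oprk1* had 0.30 ± 0.12 per SD of the distance in the light (unadjusted p = 0.0301, edgeR adjusted p = 0.848), and 0.17 with mouse 5 included.

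The other 51 pairs had slopes from -0.44 to 0.53. For *Penk*, the slopes were 0.24 to 0.30 on the 4 maze and light/dark measures and -0.38 to -0.36 on the 3 social ratios, with the smallest unadjusted p at 0.0515. On light-box time, light-box distance and open-arm time, 7 of the 8 genes had slopes above 0, and 7 of 8 had slopes below 0 on the 3 min ratio and on the 5 min ratio. On total entries 6 of 8 slopes were above 0, and on the 10 min ratio 6 of 8 were below 0. The 7 measures were taken on the same mice and are not independent of each other. The 8 genes are not independent either, and the signs were not counted over all genes, so these sign counts are a description only.

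**Figure D4:**
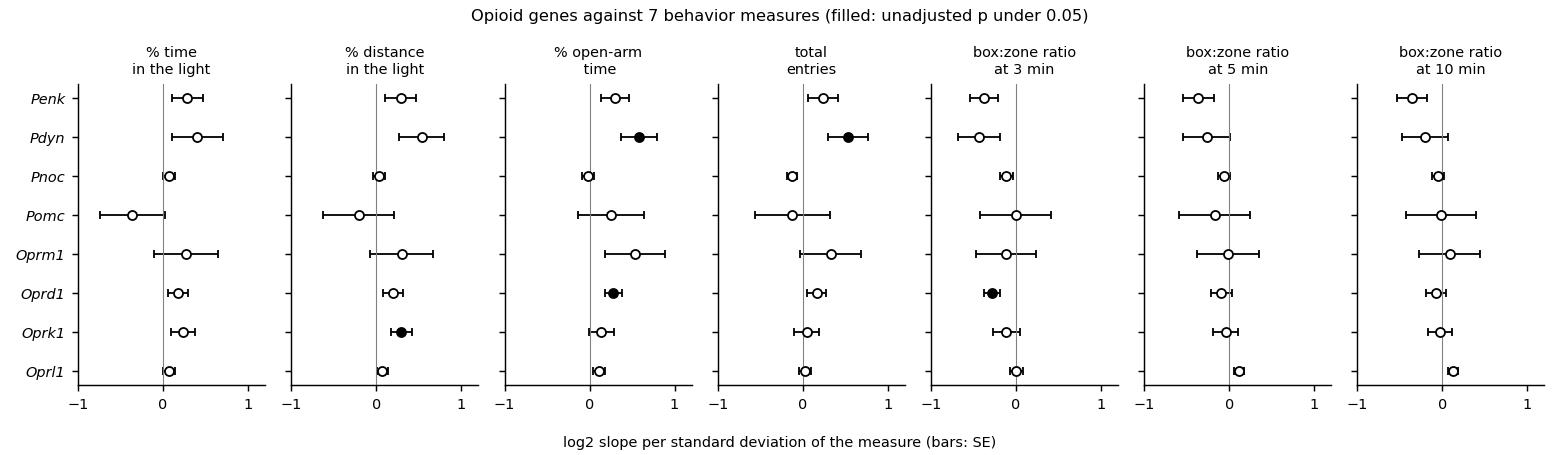
Slope of each opioid gene, in log2 units per SD of the measure, for 7 behavior measures, with bars of 1 SE and filled points for an unadjusted p under 0.05. The 5 filled points are *Pdyn* on open-arm time and total entries, *Oprd1* on open-arm time and on the 3 min ratio, and *Oprk1* on distance in the light, and none passed after adjustment.

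A further comparison set the opioid genes against the levels of marker genes of the cells that the tissue could hold, since the amygdala, the striatum and the pituitary each express some of them. Each score was the mean log2 CPM of a list that contained no opioid gene. *Penk* rose with the score of striatal projection neurons (8 genes, among them *Drd1*, *Drd2* and *Adora2a*). Its slope was 0.58 ± 0.077 log2 units per SD of the score (SE, n = 11 mice), with an edgeR adjusted p of 0.00716, and it was the only one of the 8 called, where 0.189% of all other genes were called. The 3 mice with the lowest scores, 4, 11 and 8, had 195.7, 154.4 and 168.1 CPM of *Penk*, and mouse 12, with the highest score, had 553.7 CPM. With mouse 12 left out the slope was 0.50 and the adjusted p 0.107, so the call needed that mouse, and without mice 4 and 11 the slope was 0.57 with an adjusted p of 0.0425. In bulk tissue, more cells of a type and more RNA per cell cannot be told apart. *Penk* also went with *Foxp2*, listed here as a marker of intercalated cells of the amygdala (r = 0.710, rho = 0.736). Its r was -0.122 with *Prkcd* and -0.205 with *Sst*, both central amygdala markers, but 0.136 (rho = 0.036) with the score of that whole list. For the other markers of the central amygdala and intercalated lists, r with *Penk* was not computed. No score was tested for intercalated cells, and their part in the *Penk* values was not tested.

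*Drd2* and *Adora2a*, receptors of the enkephalin-type projection neurons, spanned wide ranges. *Drd2* ran from 1.16 CPM in mouse 4 to 14.5 CPM in mouse 12, and *Adora2a* from 1.42 CPM in mouse 8 to 47.6 CPM in mouse 12. *Pdyn* had a slope of 0.59 ± 0.18 on the same score (unadjusted p = 0.00737, edgeR adjusted p = 0.383), as large as that of *Penk* with a wider error. *Oprd1* had 0.24 ± 0.099 (unadjusted p = 0.0280, edgeR adjusted p = 0.544), which was 0.15 without mouse 7, and *Pomc* -0.72 ± 0.25 (unadjusted p = 0.0135, edgeR adjusted p = 0.455). The *Pomc* slope was -0.41 without mouse 11 and -0.026 without mice 4 and 11, the 2 mice with the lowest striatal scores.

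None of the 8 was called for the other 3 scores, at shares of all genes of 0.00742% for the central amygdala, 0.00742% for basolateral excitatory neurons and 0.00371% for the pituitary. All 8 slopes on the central amygdala score were above 0, from 0.069 to 0.49, and the signs were again not counted over all genes. The smallest unadjusted p was that of *Oprk1*, with a slope of 0.32 ± 0.11 (unadjusted p = 0.0133, edgeR adjusted p = 0.997). On the basolateral score the slopes ran from -0.17 to 0.49, and no unadjusted p was under 0.05. *Pomc* had a slope of 0.78 ± 0.15 on the pituitary score (unadjusted p = 0.000158, edgeR adjusted p = 0.342), 0.39 without mouse 11 and -0.11 without mice 4 and 11.

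**Figure D5:**
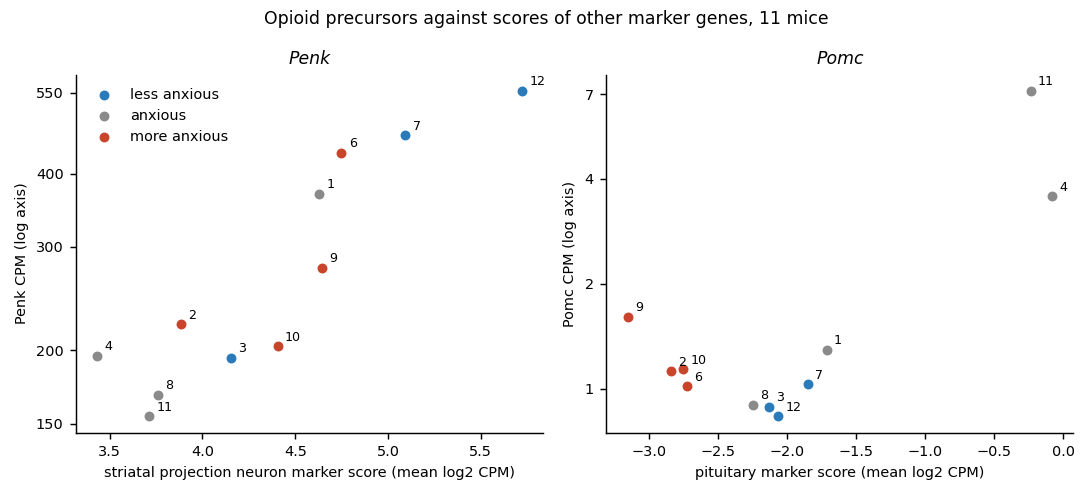
Left, CPM of *Penk* on a log axis against the striatal projection neuron score; right, CPM of *Pomc* on a log axis against the pituitary score, with 1 numbered point per mouse, colored by predicted anxiety state. *Penk* runs from 154.4 CPM in mouse 11 to 553.7 CPM in mouse 12, and *Pomc* is highest in mice 4 and 11.

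The genes whose log2 CPM was most like that of each opioid gene over the 11 mice were named by Pearson's r. They come from 15890 genes above a mean of 1 CPM, as a description that selects the highest of many. For *Penk* they were *Six3* (r = 0.979), *Kcnk6* (0.960), *Dlx6* (0.936), *Mc3r* (0.929) and *Drd2* (0.924). Of these, *Six3* and *Dlx6* encode transcription factors of developing striatal and other forebrain GABA neurons, *Mc3r* a melanocortin receptor and *Drd2* a dopamine receptor. For *Pdyn* they were *Serinc5* (0.952), *Apcdd1* (0.946), *Usp22* (0.929), *Gpr83* (0.920) and *Ttc39b* (0.917). For *Pnoc* they were *Ucn3* (0.926), which encodes the stress peptide urocortin 3, *Gm43493* (0.920), *4732496C06Rik* (0.916), *Gm44421* (0.909) and *Rpf1* (0.902).

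For *Pomc* the r values were lower, from 0.880 for *Pawr* through *Rad51c*, *Ccdc71l* and *Myo7a* to 0.836 for *Mpdz*, and with the 2 high mice they rest on few points. Genes below a mean of 1 CPM were not ranked. Of the pituitary markers below it, *Lhb* had an r of 0.952 (rho = 0.655) with *Pomc* and *Fshb* 0.947 (rho = 0.528). The r was 0.868 for *Cga* (rho = 0.191), 0.268 for *Pitx1* and -0.343 for *Pou1f1*. Among the pituitary markers above that mean, it was 0.549 for *Prl*, 0.497 for *Gh* and -0.129 for *Tshb*. Like *Pomc*, the genes *Lhb*, *Fshb* and *Cga* were highest in mice 4 and 11. *Lhb* had at most 20 estimated counts in a mouse and *Fshb* at most 10. Among receptors, *Oprd1* was most like *Kidins220* (0.938), *Arrb1* (0.934), which encodes an arrestin that binds activated receptors, *Gosr1* (0.933), *Exoc6b* (0.917) and *Sdc2* (0.916). *Oprk1* was most like *Olfml1* (0.891), *Exoc6b* (0.891), *Klhl32* (0.881), *Phlpp2* (0.879) and *Ttc19* (0.879), so *Exoc6b* stood in both lists. *Oprl1* was most like *Rsph9* (0.943), *4933439K11Rik* (0.917), *Colgalt1* (0.915), *M6pr* (0.912) and *Pcnx4* (0.906), and *Oprm1*, whose mice fell into 2 sets, like *Mat2a* (0.891), *Rptor* (0.885), *Zfp775* (0.855) and *Hif1an* (0.845).

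Among the opioid genes themselves, *Pdyn* went most closely with *Oprd1* (r = 0.863, rho = 0.918, n = 11 mice) and then with *Oprk1* (r = 0.752, rho = 0.764), the receptor of its own peptides. *Penk* and *Pdyn* had an r of 0.710 and a rho of 0.636, and the r fell to 0.425 without mice 7 and 12. These values come from the same libraries and share their depth and tissue composition.

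The genes that make, break down and pass on opioid peptides were listed by role. None of the 8 genes of precursor processing was called across the groups, and their median log2 fold change of more against less anxious was -0.086. *Pcsk1* and *Pcsk2*, the convertases that cut the precursors, had values of -0.21 ± 0.11 and -0.048 ± 0.14, and *Cpe*, the carboxypeptidase that trims the cut ends, -0.12 ± 0.11, at a mean level of 2180 CPM. *Pcsk1n*, which encodes an inhibitor of *Pcsk1*, had mean levels of 155.9 ± 27.2 CPM (SD) over the 3 less anxious, 229.9 ± 45.8 over the 4 anxious and 400.6 ± 81.8 CPM over the 4 more anxious mice. Its log2 fold change was 1.33 ± 0.19 with an edgeR adjusted p of 0.0804, so it did not pass here, whereas it did with DESeq2 and with the group order as a number.

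Of the 7 genes of peptide breakdown 0 were called, with a median of -0.16. *Mme*, neprilysin, which degrades enkephalins, had a value of -0.098 ± 0.25. Of the 25 genes of receptor signaling 0 were called, with a median of 0.032. An unadjusted edgeR p under 0.05 was found for 7 of them (28%), against 6.36% of all genes. The list was chosen with earlier results of these data known, and it holds genes that the study selected from these samples. This share is therefore not independent evidence. *Gnai2*, an inhibitory G protein subunit, was at 135.2 ± 15.1, 145.0 ± 34.7 and 278.7 ± 64.2 CPM in less anxious, anxious and more anxious mice, with a log2 fold change of 0.99 ± 0.18 and an edgeR adjusted p of 0.114. *Cacna1a*, a presynaptic calcium channel subunit that such receptors inhibit, had 1.29 ± 0.25 (edgeR adjusted p = 0.339).

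The 2 arrestins had opposite signs, *Arrb2* at 0.33 ± 0.094 and *Arrb1* at -0.35 ± 0.10 (edgeR adjusted p = 0.619 and 0.632). *Rgs9*, a brake on G protein signaling that is enriched in striatal neurons, had -0.82 ± 0.38 (edgeR adjusted p = 0.710), and *Rgs4*, another such brake, -0.17 ± 0.13. *Gnao1*, the most abundant G protein subunit of the list, had 0.30 ± 0.18 and *Kcnj6*, a potassium channel that the receptors open, -0.080 ± 0.17. *Pcsk1n*, *Gnai2*, *Cacna1a* and *Rgs9* are in the list the study selected from these samples, so their values are not independent evidence.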

How the data were processed

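Amygdala mRNA of 12 mice was sequenced in 1 run with single-end 75 bp reads. The authors quantified it with Salmon on mouse build mm10, collapsed it to genes and deposited estimated counts, which were whole numbers in the table. Of the gene identifiers, 99.122% matched GENCODE M21. CPM were computed with TMM factors in edgeR 4.0.16 (R 4.3.3). For the levels of mouse 5, the factors were computed over all 12 mice. Genes with at least 10 reads over 11 mice, 26963 in all, entered edgeR's robust quasi-likelihood test, with PC1 as covariate for the groups, and p-values were adjusted over all genes by Benjamini-Hochberg. Measures and marker scores (mean log2 CPM, prior count 2) were standardized. The procedure was tested on simulated data, in which the groups were not made from the simulated expression. That simulation cannot show how the group test behaves with groups made from the same data, as here. The members, lists and tests were chosen with earlier results of these data known. Named genes were the 8 members, the 5 genes of highest Pearson's r for each above a mean of 1 CPM, pairs with an unadjusted p under 0.05, fixed pathway genes and, chosen after their values were seen, *Gnai2*, *Cacna1a* and *Arrb1*. Of the genes that these rules name, 1 is not reported here. Each mouse was 1 replicate. Alternatives were DESeq2 1.42.0, RLE factors, other filters and covariates, ranks, and leaving out each mouse.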

Additional observations from a re-analysis of the deposited data

Results flagged for a closer look

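*Oprm1* in mouse 11, at 3.23 CPM, stood far from the other anxious mice, whose values lay between 0.263 and 0.460 CPM. Of 16 groups of 4 mice examined in this way, it was the only one set apart, and chance sets apart about 1 group in 20. Mouse 11 lay within the 2.51 to 3.60 CPM of the less anxious mice. It was set apart only from the low values of the other anxious mice.

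*Oprm1* in mouse 5, which has no group, was removed by the authors as an outlier and had the fewest genes with a read (23768), was at 9.39 CPM (309 estimated counts), above all 11 other mice, which had 0.263 to 3.60 CPM.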

How the results depend on the processing

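The count of opioid genes called across the groups was 0 in each alternative run, and likewise for the 7 measures and for the central amygdala, basolateral and pituitary scores. The lowest adjusted p that any alternative gave a member across the groups was 0.0652, for *Pomc* with DESeq2. Listed pathway genes called numbered 3 with DESeq2 (*Pcsk1n*, *Gnai2* and *Cacna1a*) and 1 with the group order as a number (*Pcsk1n*), and 0 to 1 when single mice were left out (1, *Gnai2*, without mouse 10). All genes called numbered 2, against 187 with DESeq2, 22 with the group order as a number, 9 with no filter, and 0 to 4 in the other fits. For the striatal score, 0 to 1 members were called when single mice were left out, with 0 only without mouse 12, where *Penk* had an adjusted p of 0.107. The *Pnoc* log2 fold change was -0.0016 with the group order as a number and ran from -0.11 to 0.15 when single mice were left out, falling below 0 without mouse 1 (-0.00045), 2 (-0.11), 6 (-0.0037), 7 (-0.020), 8 (-0.0014) or 12 (-0.058). With the group order as a number, the *Pomc* log2 fold change of more against less anxious was 0.19. The *Pomc* slope on the pituitary score was -0.11 without mice 4 and 11. Of 8 genes, 5 to 8 kept their place in the order of levels when single mice were left out, with 5 only without mouse 11. Genes not overlapping between less and more anxious mice numbered 1 to 5 when single mice were left out, where 13.1% to 22.9% of all genes above 1 CPM did not overlap. Of the 40 genes most like a member, 27 ranked within the first 50 by Spearman's rho. Where an outcome moved, the cause was not tested. No paired analysis was possible because the mice are separate animals whose numbers do not link the groups. Precision was limited by 3 to 4 mice per group.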

Other observations

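Mouse 5 has no group in the labels, was removed by the authors as an outlier and had reads for fewer genes than any other mouse (23768 against 26378 to 28196). Its *Penk* was at 284.9 CPM, *Pdyn* at 18.1, *Pnoc* at 11.4, *Oprd1* at 6.20, *Oprk1* at 16.2 and *Oprl1* at 50.9 CPM, each inside the range of the other 11 mice. *Pomc*, at 0.729 CPM (24 estimated counts), lay just below their lowest value of 0.834 CPM.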
